A study of Homo sapiens with 12 samples.

Results

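The comparison described here sets Caco-2 cells that received nutrient depletion and bafilomycin A1 together against the same line left in rich medium with vehicle. Its members are the 3 libraries of each of these 2 groups, 6 of the 12 libraries in the series, and it is read across the 18047 genes that passed a filter on low counts out of 54553 in each library's table. Caco-2 is an established human colorectal adenocarcinoma line, labelled WT in every group, and total RNA depleted of ribosomal RNA was sequenced. Rich medium was EMEM with 1 g/L glucose, 2 mM glutamine and 20% fetal bovine serum. Depleted medium was a DMEM base sold without glucose or glutamine, to which 0.1 g/L glucose, 0.2 mM glutamine and 1% serum were added. Pyruvate (1 mM), non-essential amino acids (0.1 mM) and antibiotics were the same in both media. Bafilomycin A1 was used at 100 nM for 48 h on sub-confluent cells, and depletion also ran for 48 h. No source used here names the vehicle or says how long cells stayed in rich vehicle. The remaining 6 libraries, depleted medium with vehicle and rich medium with bafilomycin A1 (3 each), served to place the combined change beside each stress alone. Because the base medium, glucose, glutamine, serum and bafilomycin A1 all differ between the groups compared, their shares in any change cannot be told apart in this contrast, and since no label says that replicates came from different cultures, the p-values reflect variation among these libraries alone, which may be technical.

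Bafilomycin A1 blocks the V-ATPase, the proton pump that acidifies lysosomes and other endomembrane compartments. Without acid, lysosomal hydrolases lose activity, autophagic cargo is not degraded, and amino acids, sterols and iron are not released to the cytosol. Lysosomes also carry the machinery through which the kinase complex mTORC1 senses amino acids. When that signal falls, the MiT/TFE transcription factors (TFEB, TFE3 and MITF) enter the nucleus, while uncharged tRNAs or stress in the endoplasmic reticulum raise translation of ATF4, which induces genes of amino acid supply. Withdrawal of glucose, glutamine and serum growth factors bears on the same sensors from outside the cell, and cells deprived of growth factors commonly leave the division cycle.

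The libraries held 12969814 to 51649213 estimated reads assigned to genes. Rich vehicle replicate 1 was the shallowest, with 12969814 reads against 41246640 and 41431158 in replicates 2 and 3, while the combined libraries held 33859998 to 49911545. It also stood apart on the first principal component (43.7% of variance), at -141.5 against -53.3 and -63.4 in its group and 57.3 to 66.3 in the combined libraries, as did rich bafilomycin A1 replicate 3, at 16.4 against -20.0 and -24.5 in its group and 28.5 to 36.6 in depleted vehicle. Across genes, this library's Spearman correlations were 0.985 to 0.9899 with depleted vehicle and 0.9844 and 0.9849 with its own group, which touches every result that uses bafilomycin A1 alone. Without both, 8176 genes were called. The median difference between annotated and effective transcript length was 177 to 206 bases in the combined libraries and 219 to 294 in rich vehicle, with no overlap. Its part in the changes below was not tested beyond a refit with effective length offsets, which called 7914 genes. Intestinal epithelial markers summed to 7687 to 10780 CPM (counts scaled to a fixed library size after edgeR's TMM factors) in rich vehicle and 3636 to 4134 in the combined group. Of the 13 tested, 6 were called lower, 1 higher and 6 neither. KRT8 and KRT18 had the highest medians in rich vehicle, 4193 and 1517 CPM, against 694.2 and 276.8 CPM in the combined group. CDH1 was at medians of 1176 and 1250 CPM, and HNF4A at 311.3 and 431 CPM. These genes were named after their values were seen. CDX1 was near absent throughout, with at most 0.0786 CPM in rich vehicle and no read in the other groups. Fibroblast markers summed to 169.8 to 339.7 and 60.97 to 98.96 CPM, immune markers to 13.83 to 25.86 and 7.952 to 10.1, and endothelial markers to 7.174 to 14.72 and 3.157 to 4.543. Most of the fibroblast sum was PDGFRA, at medians of 259.5 and 55.25 CPM, with COL1A1 at 28.18 and 20.48 CPM. The medians of DCN, POSTN and THY1 were at most 0.05237 CPM in these 2 groups. These fibroblast markers were also named after their values were seen. PTPRC, the pan-leukocyte antigen, had no read in rich vehicle and at most 0.257 CPM in the combined group. Fewer cells of a type and less RNA per cell cannot be told apart in bulk samples.

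The combined stress changed a large share of the transcriptome. Genes were called where the adjusted p of edgeR's quasi-likelihood test, fitted on all 12 libraries and adjusted by Benjamini-Hochberg over the 18047 genes, was under 0.05. Of these genes, 7797 (43.2%) were called, 3899 (21.6%) higher and 3898 (21.6%) lower, and the median log2 fold change of all genes was 0.03. Those shares are the background against which each gene list below is read. Changes were often large: 2233 called genes were more than 2-fold higher and 2149 more than 2-fold lower, and 309 and 169 exceeded 8-fold. The 2 groups did not overlap for 8791 of all genes tested (48.7%), 7264 of them called. With 7797 genes called, groups apart were usual among called genes. A lack of overlap given for genes below thus describes their levels and adds no support. Scaling by library size alone moved the median of all genes to 0.17 and the share of calls that were higher from 50.01% to 59.66%, so directions of small changes depend on the scaling. When the change was tested against a minimum fold of 1.5, 3903 genes were called.

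**Figure D1:**
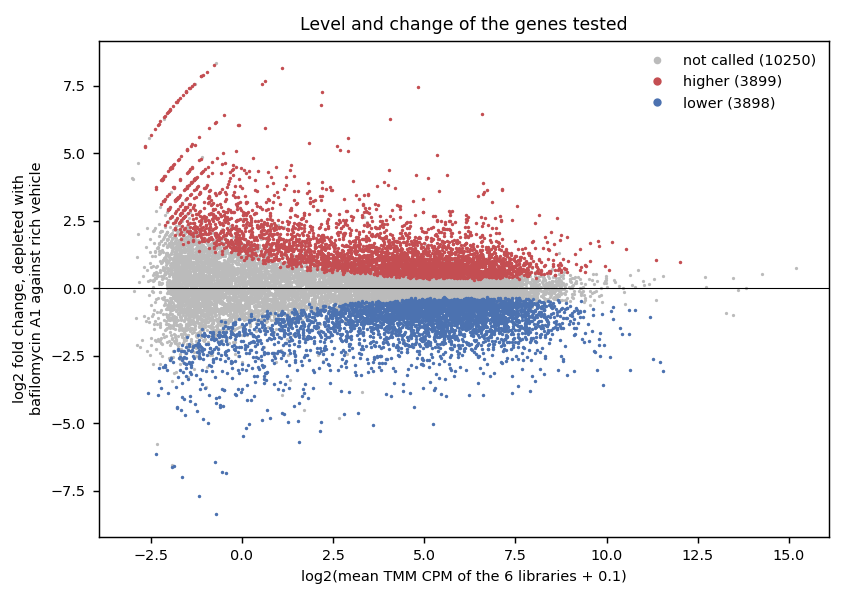
Mean level of each of the 18047 genes over the 6 libraries (x axis, log2 of TMM-scaled CPM plus 0.1) and its log2 fold change, depleted medium with bafilomycin A1 against rich vehicle (y axis). Called genes are coloured, 3899 higher and 3898 lower, and they spread over the whole range of levels on both sides of 0.

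Of the genes that rose most, INHBE, the inhibin beta E subunit, a secreted ligand of the TGF-beta family induced by ATF4 (chr12:57455307-57458025, GRCh38), stood at 2.46, 1.94 and 2.23 CPM in rich vehicle and at 151, 210 and 207 CPM in the combined libraries. The log2 fold change was 6.44 (SE 0.55, edgeR adjusted p = 2.68e-06). The 12 most raised and 12 most lowered genes were picked among called genes whose groups did not overlap. Their separation was thus set by the choice. KLHDC7B, a kelch domain protein, was at 0, 0.424 and 0.341 CPM in rich vehicle and at 37.7, 61.3 and 68.6 CPM in the combined libraries, a log2 fold change of 7.46 (SE 1.18). Its absence from replicate 1 falls in the shallowest library. Of the same 12 most raised genes, NIBAN1 (6.26, or 7.31 without rich vehicle replicate 2), BIRC7, a caspase-binding inhibitor of apoptosis (5.57), DNAJC12, a J-domain cochaperone (5.28), HSPA6, a stress-inducible HSP70 (5.12), and ASPA, which splits N-acetylaspartate (5.08), all rose from under 1 CPM in each rich vehicle library. LAMP3, a lysosomal membrane glycoprotein (4.93), YPEL2 (4.37), TCP11L2 (4.20), MST1 (4.20) and ARFGEF3 (4.08) completed the group. YPEL2 was at 0.893, 1.72 and 1.7 CPM in rich vehicle and at 35.6, 28.5 and 29.5 CPM in the combined libraries. HSPA6 resembles other HSP70 genes and MST1 has near-identical copies, so reads of both may be split between loci.

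Of the genes that fell most, NPPB, the precursor of B-type natriuretic peptide, was at 41.6, 87.1 and 90.6 CPM in rich vehicle and 1.45, 2.75 and 2.59 CPM in the combined libraries. The log2 fold change was -5.03 (SE 0.45, edgeR adjusted p = 1.96e-06). CLDN2, a claudin that forms cation and water pores in leaky epithelia, was at 8.33, 16 and 15.2 CPM in rich vehicle and 0.497, 0.615 and 0.477 CPM in the combined libraries, a log2 fold change of -4.64 (SE 0.39). SOSTDC1, a secreted BMP and WNT antagonist, (log2 fold change -4.63), NOX1, the colonic superoxide-generating oxidase (-4.40), SH3TC2 (-4.0), DUSP6 (-3.98), ANKRD1 (-3.95), CDCA7 (-3.93), SIGLEC6 (-3.90), CEACAM6 (-3.88) and SLC7A8 (-3.86) fell too. Albumin, picked by the same rule, was uneven within rich vehicle. ALB was at 393, 13.9 and 12.6 CPM in rich vehicle and 12, 7.15 and 7.48 CPM in the combined libraries, so its log2 fold change of -3.97 (SE 1.18) rests on rich vehicle replicate 1. Without that library the value was -0.58 and the edgeR adjusted p was 0.0778.

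**Figure D2:**
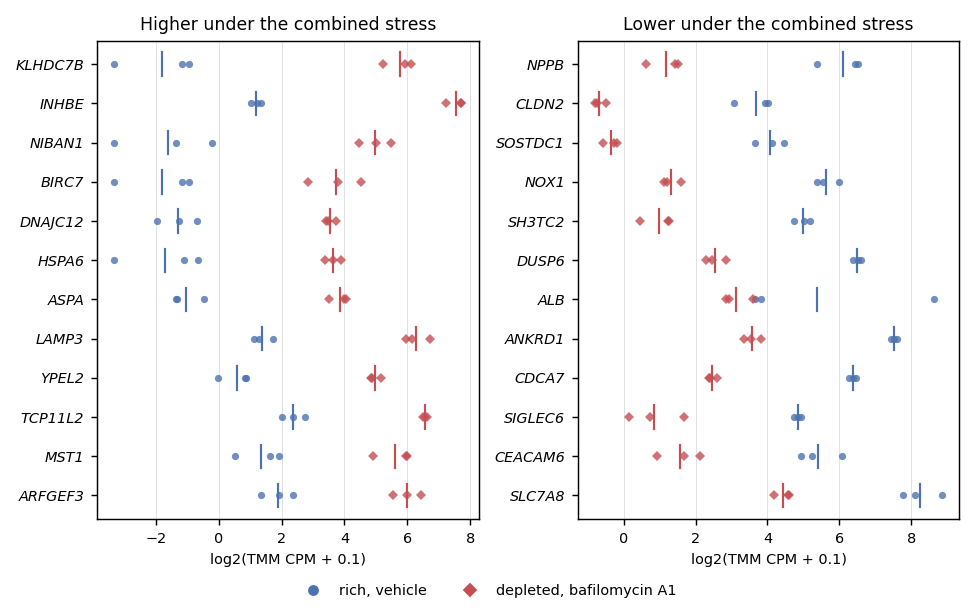
Level in each library of the 12 most raised (left) and 12 most lowered (right) called genes, as log2 of TMM-scaled CPM plus 0.1; points are libraries and bars the mean of each group's 3 points. Genes were picked among called genes whose groups did not overlap, so the groups are apart by choice. The rich vehicle mean of ALB is carried by 1 library.

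Genes of cell division fell across the cycle. Of 45 genes tested for DNA replication and S phase, 40 fell and none rose (median log2 fold change -1.28), and of 40 mitotic genes 38 fell and 1 rose (-1.66), against 21.6% in either direction among all genes. RRM2, the small subunit of ribonucleotide reductase, was at 177, 149 and 161 CPM in rich vehicle and 17.1, 13.3 and 12.4 CPM in the combined libraries (log2 fold change -3.50, SE 0.27, edgeR adjusted p = 4.45e-07). MKI67, which encodes the proliferation antigen Ki-67, was at 327, 406 and 206 CPM and at 73.5, 56.4 and 34.4 CPM. CDK1, the kinase that drives entry into mitosis, was at 558, 383 and 673 CPM and at 93.3, 96.7 and 96.8 CPM. None of the 3 genes overlapped between groups, as for most called genes. The log2 fold change was -2.51 for MKI67 (SE 0.29) and -2.49 for CDK1 (SE 0.22). MCM10 (-3.31) and MCM2 (-1.71) of the replication licensing and helicase machinery, UHRF1 (-3.18), which reads hemimethylated DNA, PTTG1, or securin (-2.58), and CCNB1, or cyclin B1 (-1.91), fell as well. The mitotic gene that rose was CDC25C, by 0.40, picked out after its value was seen; no mitotic gene was called higher without rich vehicle replicate 1 or 2, or combined replicate 1 or 2. Of 48 replication-dependent histone genes tested, 35 fell and none rose (median -1.20), led by H4C11 (-2.81), H2AC12 (-2.46) and H3C8 (-2.03). The histone genes are near-identical copies whose reads may be split, and H4C11 was at 20.5 CPM in combined replicate 3 against 1.84 and 0.71 in the others; its call was lost in 9 alternative settings, among them without rich vehicle replicate 1 (log2 -2.53, edgeR adjusted p = 0.067), and without combined replicate 3 its value was -5.34. H3C8 was at -1.21 without rich vehicle replicate 3, where 1 histone gene was called higher.

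The mitotic genes were set beside their promoters because many genes of this kind carry a cell cycle homology region, read TTTGAA, in the bases before the start, through which DREAM and MuvB complexes act. In the 250 bases before the first RefSeq start (GRCh38.p14), on either strand, TTTGAA was present in 18 of 33 mitotic genes with an entry (54.5%). It was present in 8.94% of all 12547 tested genes with an entry, in 11.5% of genes called lower and in 7.33% of genes called higher. The E2F motif TTTCCCGC was present in 9 of 38 replication genes (23.7%) and in 2.15% of all, and the E2F motif TTTGGCGC in 4 of 38 (10.5%) and in 0.837%. A match is a description of the letters and not of binding. The 2 mitotic genes with the largest fall that were named and carry a match are printed here, 170 bases from 200 to 31 before the start, with the TTTGAA match in capitals. That of MKI67 begins 47 bases before the start, with a second match closer to the start and outside the stretch; that of CDK1 begins 161 bases before the first of 2 listed starts.
MKI67 (chr10:128126454-128126623, minus strand): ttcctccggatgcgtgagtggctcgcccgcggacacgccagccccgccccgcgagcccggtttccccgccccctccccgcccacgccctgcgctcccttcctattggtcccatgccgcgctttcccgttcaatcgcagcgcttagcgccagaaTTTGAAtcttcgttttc
CDK1 (chr10:60778131-60778300, plus strand): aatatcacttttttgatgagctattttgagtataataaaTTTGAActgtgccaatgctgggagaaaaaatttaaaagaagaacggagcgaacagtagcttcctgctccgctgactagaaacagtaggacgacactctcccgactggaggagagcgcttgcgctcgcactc

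Most genes of cycle entry fell, and most members of a mixed list of cell cycle inhibitors and quiescence genes rose. CCND1, cyclin D1, the growth factor-responsive partner of CDK4 and CDK6, was at 461, 415 and 474 CPM in rich vehicle and 38.2, 30.1 and 27.3 CPM in the combined libraries. The log2 fold change was -3.82 (SE 0.25, edgeR adjusted p = 1.37e-07), with no overlap; LTO1 shares exon sequence with CCND1 on the other strand, and whether the counting used strand is not stated. Of 20 genes tested among G1 cyclins and the MYC network, 12 fell and 4 rose (median -1.13). CCNE1, cyclin E1 (-2.62), E2F2 (-2.58) and MYC (-1.41) fell. The 4 that rose, listed after their values were seen, were MXD4 (2.50), MXD1 (1.98), MNT (1.70) and MAX (1.49), which are the shared MYC partner MAX and transcriptional repressors that bind it in place of MYC. Among 23 cell cycle inhibitors and quiescence genes, 16 rose and 2 fell (median 0.95). KLF4, a growth-arrest factor of the gut epithelium, rose from 2.31, 3.9 and 3.22 CPM to 18.6, 21.7 and 19.1 CPM (log2 2.63), and IRS2, an insulin receptor substrate under FOXO control, from 15, 18.7 and 13.5 to 78.4, 84.6 and 104 CPM (2.50). CDKN1B, which encodes p27, rose by 0.79 (SE 0.21), a size that did not pass a minimum fold of 1.5. CDKN1A, which encodes p21, was at 4.91, 3.77 and 5.26 CPM against 5.17, 7.43 and 8.94 CPM, and these overlap (log2 0.63, edgeR adjusted p = 0.0738); it was called without combined replicate 1 (0.82, 0.0356) and with scaling by library size alone (0.0289). Of 20 p53 targets tested, 7 rose and 1 fell (35% and 5%, median 0.20), with BBC3, the apoptotic effector PUMA (2.05), among those higher. In this list 3 were lower without rich vehicle replicate 2, and none without rich vehicle replicate 3 or combined replicate 2 or 3.

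Targets of growth factor and mechanical signalling were reduced. Of 20 ERK feedback and output genes, 16 fell and 2 rose (median -1.97, the lowest of the 36 lists), and of 24 YAP and SRF targets 22 fell and none rose (-1.51). DUSP6, the phosphatase that dampens ERK, was at 82.4, 91.9 and 97.4 CPM in rich vehicle and 5.35, 7.08 and 4.8 CPM in the combined libraries. ANKRD1, a YAP target, was at 184, 174 and 192 CPM and at 10.1, 11.6 and 14 CPM. Both are among the 12 most lowered genes, which were picked with groups apart. ETV5, an ERK-induced ETS factor (-2.85), and CNN1, the SRF target calponin (-4.13), fell as well. The ERK-list genes that rose were JUNB (1.23) and FOS (0.65), named after their values were seen; 1 member was higher without combined replicate 2. Of 21 WNT targets and stem cell genes tested, 14 fell and none rose (median -0.85). DKK1, a secreted WNT antagonist, went from 1810, 1983 and 1496 CPM to 144, 164 and 130 CPM (log2 -3.60, SE 0.25), and LGR5, the crypt stem cell receptor, from 34.2, 50.7 and 31 to 9.64, 10.8 and 11.7 CPM (-1.85).

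**Figure D3:**
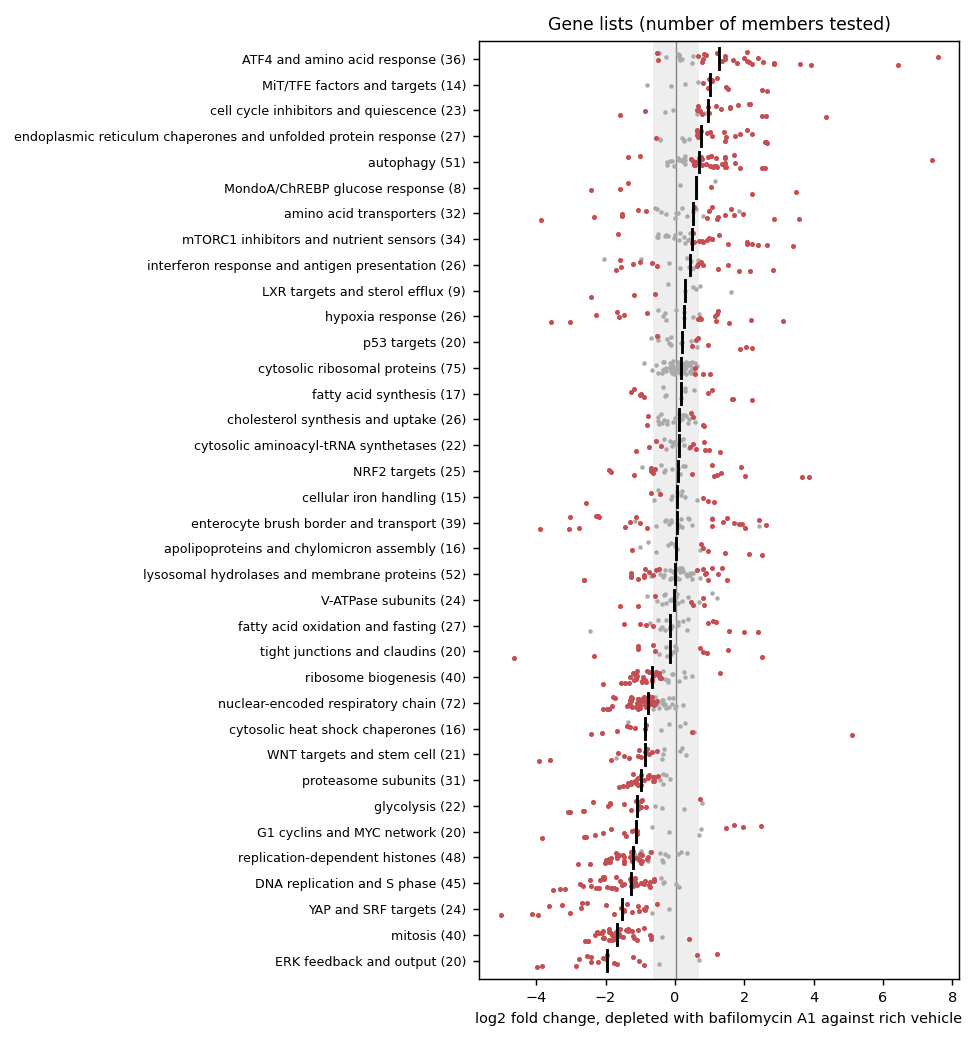
Log2 fold change of every tested member of the 36 gene lists (x axis), lists ordered by their median (black bar), with called members in red and others in grey. The grey band spans the quartiles of all genes tested and the thin line their median; the ERK, mitosis and YAP/SRF lists lie lowest and the ATF4 and MiT/TFE lists highest. The points furthest right in the ATF4 and autophagy lists, FGF21 and MAP1LC3A, had no read in rich vehicle, so their fitted values have no fixed size.

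ATF4-linked genes of amino acid supply and stress rose. Of 36 tested, 24 rose and 2 fell (66.7% and 5.56%), with a median of 1.28. The transcript of ATF4 itself, a factor controlled mainly through translation, was at 451, 282 and 546 CPM in rich vehicle and 599, 537 and 674 CPM in the combined group, which overlap (log2 0.50, edgeR adjusted p = 0.0944); without rich vehicle replicate 3 it was called (0.73, 0.0254), as with scaling by library size alone (0.0462). DDIT3, the pro-apoptotic factor CHOP, rose from 10.6, 11 and 17.4 CPM to 96.6, 88.9 and 101 CPM (log2 2.87, SE 0.33). NUPR1, a stress-induced chromatin protein (3.93, or 4.57 without rich vehicle replicate 1), the collagen receptor DDR2 (3.61), the glycine carrier SLC6A9 (2.86) and the secreted stress hormone GDF15 (1.79) rose too. FGF21, another secreted hormone, had no read in the 3 rich vehicle libraries and stood at 0.386, 0.544 and 0.894 CPM in the combined ones. Set against a floor of 3 counts over the rich vehicle group, this is at least 16.9-fold higher; FGF21 was named after its values were seen. With FGF21 at this bound the list median stayed at 1.28. ASNS, asparagine synthetase, moved far less than these genes: 135, 122 and 135 CPM against 210, 215 and 251 CPM, a log2 fold change of 0.78 (SE 0.14, edgeR adjusted p = 0.000508) that did not pass a minimum fold of 1.5. The 2 genes that fell, named after their values were seen, were JDP2 (-0.51) and PSAT1 of serine synthesis (-0.48); 1 was lower without rich vehicle replicate 3 or combined replicate 2 or 3.

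The CEBP-ATF response motif TGATGNAA, through which ATF4 dimers bind, was present in the 250 bases before the start of 4 of 28 genes of the ATF4 list with an entry (14.3%) and in 1.63% of all genes tested, and in 1.82% and 1.47% of those called higher and lower. ASNS is shown as a classic amino acid response gene, with the match in capitals beginning 68 bases before the first of 2 listed starts, over the same 170-base stretch as above.
ASNS (chr7:97872439-97872608, minus strand): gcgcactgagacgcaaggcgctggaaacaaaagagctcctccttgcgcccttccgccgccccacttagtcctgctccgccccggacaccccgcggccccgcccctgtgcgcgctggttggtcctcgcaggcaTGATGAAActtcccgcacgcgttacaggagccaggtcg

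Protein folding genes of separate compartments differed in direction. Of 27 chaperones and unfolded protein response genes of the endoplasmic reticulum, 19 rose and 1 fell (median 0.76), with none lower without rich vehicle replicate 2 or 3, rich bafilomycin A1 replicate 3, or combined replicate 1 or 3. HERPUD1, a component of degradation from the endoplasmic reticulum, was at 107, 123 and 113 CPM in rich vehicle and 641, 747 and 681 CPM in the combined libraries (log2 2.59, SE 0.18). ERN1, the sensor IRE1, rose from 26.2, 32.2 and 19.7 to 152, 180 and 155 CPM (2.64), and DNAJB9, a BiP cochaperone, by 2.61. All 3 genes were clear of overlap, as most called genes were. Of 16 cytosolic and mitochondrial heat shock chaperones, 8 fell and 2 rose (median -0.85). HSP90AA1, the inducible cytosolic HSP90, went from 1459, 1339 and 1532 CPM to 295, 330 and 382 CPM (-2.10), and the mitochondrial cochaperonin HSPE1 fell by 2.41. The 2 that rose were HSPA6, described above, and HSPA1B by 0.50, the latter named after its value was seen and nearly identical in sequence to HSPA1A; 1 was higher without rich vehicle replicate 1 or combined replicate 2.

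Of 34 inhibitors of mTORC1 and nutrient sensors tested, 18 rose and 1 fell (52.9% and 2.94%, median 0.50), with 4 lower without rich vehicle replicate 2. DDIT4, or REDD1, which activates the TSC complex, was at 9, 14.8 and 21.7 CPM in rich vehicle and 177, 144 and 171 CPM in the combined group (log2 3.42, SE 0.26, edgeR adjusted p = 4.03e-07). SESN2, a leucine-binding inhibitor of GATOR2, rose from 10.5, 18.5 and 19.4 to 74.9, 72.3 and 78.8 CPM (2.21). RRAGD, a Rag GTPase and MiT/TFE target, rose from 4.17, 2.6 and 4.56 to 21.6, 21.8 and 27.7 CPM (2.66), and DEPTOR, a subunit that inhibits mTOR, by 2.41. No library of one group reached the other for these genes. The one that fell was SEH1L (-1.64), a nucleoporin shared with GATOR2, named after its value was seen.

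Most autophagy genes rose, while lysosomal genes were called in shares near those of all genes. Of 51 autophagy genes, 35 rose and 2 fell (68.6%, median 0.71), and of 14 MiT/TFE factors and targets tested 10 rose and none fell (71.4%, median 1.02). ULK1, the kinase that starts autophagosome formation, was at 29.8, 43.3 and 31.8 CPM in rich vehicle and 211, 211 and 216 CPM in the combined libraries (log2 2.60, SE 0.17, edgeR adjusted p = 1.37e-07). SQSTM1, the cargo receptor p62, rose from 244, 353 and 388 to 800, 916 and 999 CPM (1.46), and the lipid effector WIPI1 rose by 2.51. These groups were apart. MAP1LC3B, an LC3 protein, rose by 1.09 and TP53INP1 by 1.87. MAP1LC3A had no read in rich vehicle and 0.423, 0.473 and 0.745 CPM in the combined libraries, at least 15.6-fold higher against the same floor. The autophagy genes that fell were FUNDC1 (-1.35), a mitophagy receptor, and VMP1 (-1.0); these and MAP1LC3A were named after their values were seen. Among the factors, MITF rose by 0.82, a size that did not pass a minimum fold of 1.5, TFE3 had a log2 fold change of 0.29 (edgeR adjusted p = 0.0908, or 0.0334 with scaling by library size alone) and TFEB of -0.82 (0.25). TFEB was at 0.298 CPM in rich vehicle replicate 1 against 3.26 and 4.16 in the others; without that replicate its log2 fold change was -1.30 (edgeR adjusted p = 0.00728). GPNMB, a MiT/TFE target, stayed under 1 CPM in all 6 libraries.

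Of 52 lysosomal hydrolase and membrane genes tested, 9 rose and 13 fell (17.3% and 25%), with a median of -0.00; without rich vehicle replicate 2, 14 rose. CTSC, the protease cathepsin C, fell from 280, 360 and 343 CPM to 56.6, 52.6 and 49.4 CPM (log2 -2.63, SE 0.19), and PPT1, palmitoyl-protein thioesterase, from 316, 318 and 241 to 41.3, 55.1 and 45.4 CPM (-2.62). CTNS, the cystine exporter, rose from 10.5, 18.9 and 12.7 to 38.8, 46.7 and 33.3 CPM (1.49). The groups did not overlap for any of the 3, as for most called genes. LAMP1 (-0.14, edgeR adjusted p = 0.65) and CTSD (0.49, 0.156) were not called, though CTSD was without rich vehicle replicate 2 (0.85, 0.011) and with scaling by library size alone (0.0411). Of 24 V-ATPase genes, the target complex of bafilomycin A1, 4 rose and 3 fell (16.7% and 12.5%, median -0.02). ATP6V0C, the proteolipid subunit that forms the ring, went from 129, 239 and 165 CPM to 83.7, 86.1 and 87.3 CPM (-1.05), and ATP6V0A2 and ATP6V0D1 rose by 0.84 and 0.51, sizes that did not pass a minimum fold of 1.5. ATP6V0A4 (-1.58, edgeR adjusted p = 0.0495) lost its call in 11 alternative settings, among them without combined replicate 1 (0.101), and without that replicate or replicate 2 only 1 V-ATPase gene was called lower. The CLEAR-like motif TCACGTGA was present in 5 of 34 lysosomal promoters (14.7%) and 2 of 17 V-ATPase promoters (11.8%) with an entry, against 1.55% of all. It was in 0 of 42 autophagy promoters, 1 of 12 MiT/TFE promoters and 3 of 38 DNA replication promoters. Among genes called higher and lower the shares were 1.641% and 1.305%. Every match contains the shorter E-box CACGTG, which 8.58% of all held.

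Sterol synthesis genes stood near their rich vehicle level. Of 26 tested, 4 rose and 2 fell (15.4% and 7.69%, median 0.12). The list median was -0.87 under depletion alone and 0.24 under bafilomycin A1 alone, all against the same rich vehicle libraries. INSIG1, which retains the sterol sensor SCAP, was at 160, 170 and 178 CPM in rich vehicle, 76.3, 98.8 and 71.2 CPM under depletion, 437, 481 and 221 CPM under bafilomycin A1 and 275, 290 and 323 CPM under both. Its level under both thus lay above rich vehicle (log2 0.81, SE 0.23, edgeR adjusted p = 0.011, not past a minimum fold of 1.5) and above depletion. It lay within the range of bafilomycin A1 alone only through replicate 3 of that group, and below the other 2 libraries. HMGCS1 (-0.21, edgeR adjusted p = 0.497) and the desaturase SCD (0.16, 0.653) were not called. MVD, which makes isopentenyl diphosphate, rose by 0.83 and lost its call without rich vehicle replicate 1 (edgeR adjusted p = 0.0655) or combined replicate 1 (0.0646). Without combined replicate 1, 1 gene of the list was called higher, and without rich vehicle replicate 2, 2 were; 4 were lower without rich bafilomycin A1 replicate 3 and 1 without combined replicate 3. Of 17 fatty acid synthesis genes tested, 5 rose and 5 fell (29.4% each, median 0.16). The glucose-responsive factor MLXIPL, or ChREBP (2.22), and the acyltransferase GPAM (1.67) were among those higher. Of 9 LXR targets tested, 3 fell. None was called higher as fitted, but 3 were with scaling by library size, upper quartile scaling, DESeq2 or no filter, and 2 without rich vehicle replicate 2 or replicate 3, so the list has no settled direction. ABCA1, the cholesterol exporter, was at 19.4, 18.1 and 10.1 CPM in rich vehicle and 55.1, 55.3 and 34.9 CPM under both, which do not overlap, yet it was not called in the fit (log2 1.62, SE 0.66, edgeR adjusted p = 0.0733). Its 3 libraries with bafilomycin A1 in rich medium were at 8, 14.6 and 66.6 CPM; without the last of these, rich bafilomycin A1 replicate 3, ABCA1 was called (edgeR adjusted p = 0.000419).

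Glycolysis genes fell: 17 of 22, with 1 higher and a median of -1.10. SLC2A3, the glucose transporter GLUT3, went from 5065, 6685 and 4315 CPM to 575, 820 and 516 CPM (log2 -3.07, SE 0.34). SLC2A1, or GLUT1, went from 1077, 2021 and 1471 to 174, 204 and 184 CPM (-3.02), and LDHA, lactate dehydrogenase A, from 814, 666 and 838 to 137, 117 and 125 CPM (-2.61). The 2 groups were far apart for all 3 genes, and the phosphofructokinase PFKP also fell, by 2.64. The gene that rose was PFKFB4 (0.74), named after its value was seen; 2 were higher without rich vehicle replicate 2 or rich bafilomycin A1 replicate 3. Hypoxia genes split, with 10 of 26 tested higher and 7 lower (38.5% and 26.9%, median 0.27). NDRG1 (2.20), VEGFA (1.19) and the collagen crosslinking enzyme LOX (3.13) rose, whereas CA12, a carbonic anhydrase (-3.56), fell together with SLC2A1, which this list shares. TXNIP, the glucose-induced arrestin, fell from 22.2, 37.6 and 25.3 to 9.03, 9.8 and 9.62 CPM (-1.59), as did its relative ARRDC4 (-2.41), among 3 higher and 3 lower of 8 glucose response genes tested; KLF15 rose by 3.50. Of 27 genes of fatty acid oxidation and fasting, 6 rose and 4 fell (22.2% and 14.8%, median -0.13), against 21.6% of all genes in either direction. The fasting regulators PPARA (2.39, or 1.73 with effective length offsets) and CREB3L3 (1.99) and the lipase inhibitor ANGPTL4 (1.55) rose. PDK4 was at 3.87 CPM in rich vehicle replicate 1 and at 0.106 and 0 in the others, so no direction is given for it.

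Proteasome, ribosome biogenesis and respiratory chain genes mostly fell, whereas ribosomal protein and tRNA synthetase genes did not. Of 72 nuclear-encoded respiratory chain genes, 50 fell and none rose (69.4%, median -0.78), led by NDUFB3 (-2.07), COX7B (-1.95) and NDUFS5 (-1.89). COX7B was at 44.9, 27.8 and 90.7 CPM in rich vehicle and 12.9, 12.7 and 16.8 CPM in the combined libraries; without rich vehicle replicate 3, the highest, COX7B fell by 1.35 and 31 genes of the list were called lower. Of 31 proteasome subunits, 26 fell and none rose (83.9%, median -0.98), with PSMC1 going from 51.8, 42.6 and 49.7 to 14.1, 14.3 and 18.6 CPM (log2 -1.62). Of 40 ribosome biogenesis genes, 28 fell and 1 rose (70.0%, median -0.66). UTP20, a processing factor of the small subunit, went from 192, 202 and 111 to 61.6, 57.2 and 52.7 CPM (-1.56), and LYAR fell by 2.08; the gene that rose, TAF1D (1.30), a host of small nucleolar RNAs, was named after its value was seen, and 2 were higher without rich vehicle replicate 2 or 3. Of 75 cytosolic ribosomal protein genes, 4 rose and none fell (5.33%, median 0.17). These 4, RPL13A (1.01, or 1.63 without rich vehicle replicate 3), RPL28 (0.80), RPL3 (0.59) and RPL37 (0.58), the last named after its value was seen, may share reads with processed copies. None of the list was called higher without rich vehicle replicate 1, rich vehicle replicate 2 or combined replicate 3, while 36 were without rich vehicle replicate 3 and 2 without combined replicate 1; 4 were called lower without rich vehicle replicate 2, 2 without combined replicate 3 and 1 without rich vehicle replicate 1. Of 22 cytosolic tRNA synthetases, 7 rose and 4 fell (31.8% and 18.2%, median 0.11), with WARS1 (1.31) and AARS1 (0.99) higher and FARSB (-1.12) lower. Without combined replicate 1, 2 synthetase genes were lower.

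Amino acid carriers were called in both directions, 12 of 32 tested higher and 6 lower (37.5% and 18.75%, median 0.53). Among all genes the share was 21.6% in either direction. SLC38A3, a glutamine carrier, rose from 5.36, 9.13 and 4.87 to 77.8, 94.7 and 61.8 CPM (log2 3.58). SLC7A8, the light chain LAT2 that exchanges large neutral amino acids, fell from 273, 463 and 218 to 24, 23.6 and 18 CPM (-3.86). SLC38A3 was without overlap, as was SLC7A8, for which this was a condition of choice. Of 25 NRF2 targets, 9 rose and 7 fell (36% and 28%, median 0.08). AKR1C1, an aldo-keto reductase, rose from 9.08, 15.4 and 12.3 to 170, 188 and 188 CPM (3.88, SE 0.21), with AKR1C2 (3.65) and the efflux pump ABCC3 (2.03); AKR1C1 and AKR1C2 are near-identical, so reads may be split between them. Of 15 iron genes tested, 3 rose and 3 fell (20% each), shares near the 21.6% of all genes in either direction. Those higher included HMOX1, heme oxygenase 1 (1.14), and MCOLN1 (0.97, not past a minimum fold of 1.5). Those lower were led by the iron regulator BMP6 (-2.58), with 1 gene lower without combined replicate 3. The transferrin receptor TFRC (-0.60, edgeR adjusted p = 0.0598) and ferritin heavy chain FTH1 (0.65, 0.0545) were not called as fitted. Both lay near the threshold: DESeq2 called TFRC (0.0352) and FTH1 (0.0361), as did the edgeR fit without rich vehicle replicate 3 (0.0429 and 0.00941). Of 26 interferon and antigen presentation genes tested, 9 rose and 7 fell (34.6% and 26.9%, median 0.44), for example ISG20 (1.84) and OAS3 (-1.71).

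Of 39 enterocyte genes tested, 10 rose and 12 fell (25.6% and 30.8%, median 0.06), shares near the 21.6% of all genes in either direction. ALPI, intestinal alkaline phosphatase, rose from 4.76, 11.2 and 9.4 to 33.6, 34.2 and 38.1 CPM (log2 2.03, SE 0.25). CEACAM6, a surface glycoprotein, fell from 37.9, 67.2 and 30.5 to 4.23, 3.1 and 1.79 CPM (-3.88). The brush border lactase LCT (-2.76, or -3.37 without combined replicate 1) and the glucose transporter SLC2A2 (-3.04) fell as well; SLC2A2 was at 12.1 CPM in rich vehicle replicate 1 against 4.93 and 3.01, and its log2 fold change was -2.31 without it. VIL1, the microvillus actin bundler villin, fell by 0.81, not past a minimum fold of 1.5. Among the 13 epithelial markers tested, ALPI was the 1 that rose and 6 fell, including KRT18, a keratin of simple epithelia named after its values were seen, which went from 1283, 1517 and 1814 to 277, 233 and 294 CPM (-2.52). Of 16 apolipoprotein and chylomicron genes tested, 6 rose and 1 fell (37.5% and 6.25%, median 0.04). Those higher were led by CIDEB (2.52), whose exons overlap NOP9 on the other strand, APOA4 (2.14) and the secretory GTPase SAR1B (1.44). APOA1 was not called (-0.53, edgeR adjusted p = 0.0932), but was without rich vehicle replicate 1 (-0.73, 0.0273) and with effective length offsets (0.0416). Without rich vehicle replicate 1, replicate 2 or rich bafilomycin A1 replicate 3, 2 members of the list were lower. Of 20 tight junction genes, 5 rose and 6 fell (25% and 30%, median -0.14). CLDN3 was higher (2.52, or 3.44 without rich vehicle replicate 3) and CLDN6 lower (-2.32) beside CLDN2.

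The combined group was then set against each other group in turn, to find genes whose level under both stresses lay beyond rich vehicle, depletion alone and bafilomycin A1 alone. A gene counted where all 3 differences had the same sign and the largest of the 3 p-values, adjusted over all genes, was under 0.05. This held for 375 genes (2.08%) above and 458 (2.54%) below the other groups. The count is sensitive to single libraries: it was 833 in all, 1250 without rich vehicle replicate 1, 317 and 296 without combined replicates 2 and 3, and 439, 442 and 484 without depleted vehicle replicates 1, 2 and 3; among the genes above, it was also 233 without rich bafilomycin A1 replicate 1 and 242 without combined replicate 1. With a minimum fold of 1.5 in each of the 3 differences, 18 genes above and 70 below remained past the threshold.

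SNPH, syntaphilin, which anchors mitochondria (chr20:1266294-1309327, GRCh38), was at 11.2, 17.7 and 17 CPM under both stresses. It was at 1.41, 0.875 and 0.786 CPM in rich vehicle, 2.19, 1.95 and 3.35 under depletion and 1.48, 1.76 and 2.9 under bafilomycin A1. The smallest of the 3 log2 differences was 2.61 (edgeR adjusted p = 0.000599). Genes named singly here and in the next paragraph were picked for the size of this difference. Their standing apart was thus set by the choice. MFSD2A, a lysolipid carrier, was at 12.1, 22.3 and 16.2 CPM under both and between 1.64 and 4.84 CPM in the other 9 libraries. NPRL2, a subunit of the GATOR1 complex that inhibits mTORC1, was at 42.6, 51.9 and 64.9 CPM under both and between 9 and 18.3 CPM elsewhere; it shares exon bases with CYB561D2 on the other strand. INHBE (151 to 210 CPM against at most 46.7 CPM in the other groups), BIRC7, ARFGEF3, TMEM151A and SLC30A4, a zinc carrier, completed the named genes above. INHBE and BIRC7 lost this call in 6 and 5 alternative settings, among them without combined replicate 3 (edgeR adjusted p = 0.0659 and 0.118) and without depleted vehicle replicate 2 (0.0632 and 0.0759).

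Below the other groups, ANXA8, an annexin, was at 1.01, 0.734 and 0.447 CPM under both stresses, 5.21, 5.46 and 5.47 CPM in rich vehicle, 9.14, 8.85 and 8.46 under depletion and 5.04, 6 and 5.84 under bafilomycin A1. The smallest log2 difference was 2.85 (edgeR adjusted p = 9.64e-05), although ANXA8 has near-identical copies that may share reads. SCARA3, a scavenger receptor family member, was at 14.2, 12.2 and 10.3 CPM under both and between 56.4 and 123 CPM in the other libraries. PRSS35, a serine protease relative, was at 3.34 to 7.14 CPM against 28 to 85.6 CPM, and CLDN2 at 0.477 to 0.615 CPM against 2.15 to 19.3 CPM. SIGLEC6, KCNJ16, a potassium channel, FABP5, a fatty acid binding protein, and EFR3B were also in this group. By list, 12 of 40 mitotic, 9 of 24 YAP and SRF and 6 of 45 DNA replication genes lay below all 3 groups. Among all genes tested the share was 2.54%. Above them lay 4 genes each of the ATF4 (36 tested), mTORC1 inhibitor (34), MiT/TFE (14), autophagy (51), quiescence (23) and NRF2 (25) lists, beside 2.08% of all genes. WIPI1 and RRAGC are counted in more than one of these. Only the lists with the most such genes are given here.

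**Figure D4:**
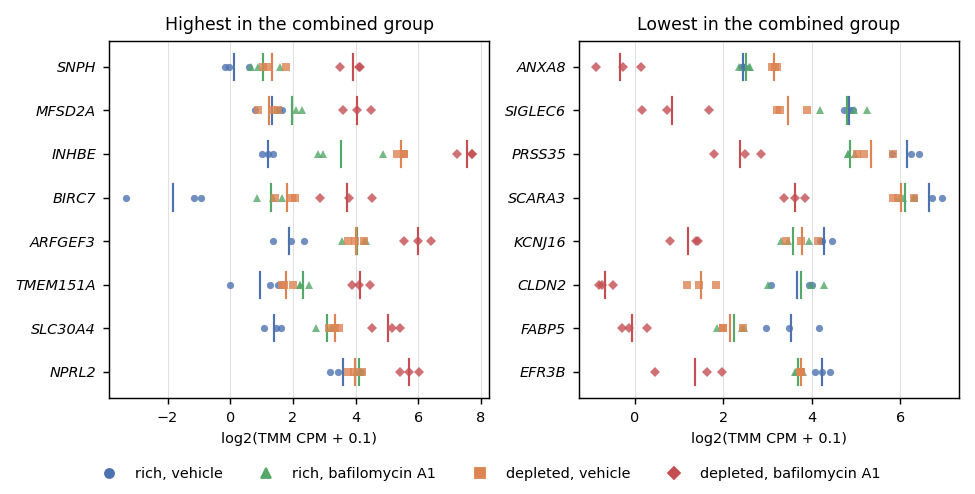
Level in all 12 libraries of the 8 named genes above (left) and 8 below (right) all 3 other groups, as log2 of TMM-scaled CPM plus 0.1; points are libraries and bars group means. Genes were picked for the size of their smallest difference from the other 3 groups. The red diamonds of the combined group thus sit apart by choice, as for SNPH and SCARA3.

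The last comparison asked whether the combined change equalled the sum of the changes under each stress alone, on the log2 scale. This departure from additivity was called for 1116 genes (6.18%), 424 above the sum and 692 below it. Of the 3899 genes called higher, 334 departed, 248 of them below the sum, and of the 3898 called lower 133 lay above the sum and 188 below it. NDRG1 was near one level under all 3 stresses: 15.9, 19 and 17.9 CPM in rich vehicle, 83.3, 64.4 and 77.5 under depletion, 64, 86.9 and 77.3 under bafilomycin A1 and 84.1, 78.9 and 81.3 under both. Its departure was -1.99 (SE 0.22, edgeR adjusted p = 0.000762), and the 3 stressed groups overlapped. DDIT4 (-2.13), GDF15 (-1.53) and AKR1C1 (-1.77) lay below the sum as well. CCND1 departed in the direction of its fall (-1.83): it was at 142, 131 and 149 CPM under depletion and 403, 467 and 218 under bafilomycin A1, above the 27.3 to 38.2 CPM under both.

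The largest departures below the sum were CYP2W1, a cytochrome P450 (-3.83), ANXA8 (-3.62), the parathyroid hormone receptor PTH1R (-3.34) and TFEC, a MiT/TFE relative (-3.17). TFEC was at 13.5, 7.99 and 12.6 CPM in rich vehicle, 61.9, 63.2 and 82.5 under depletion and 19.3, 17.4 and 16.4 under both, so depletion alone gave the highest levels. Without rich bafilomycin A1 replicate 3, which resembles depleted vehicle, the departures were -2.11 for TFEC, -3.10 for CYP2W1 and -2.48 for PTH1R, and without rich vehicle replicate 3 that of PTH1R was -4.29. The largest above it were HSPA4L, an HSP110 chaperone (2.27), MFSD2A (2.26), FJX1 (2.14) and POLR3G, an RNA polymerase III subunit (1.98). HSPA4L was at 44.9, 28.6 and 37.9 CPM in rich vehicle, 8.76, 11.4 and 10.7 under depletion, 11.9, 14.4 and 12.2 under bafilomycin A1 and 18.5, 17.4 and 15.7 under both: each stress lowered it, and with both it was higher than with either. Of 40 ribosome biogenesis genes, 21 departed, all above the sum, with a median departure of 0.90; the list median was -0.95 under depletion, -0.65 under bafilomycin A1 and -0.66 under both. Of 39 enterocyte genes, 9 departed, all below the sum, including LCT (-2.88) and the transcription factors CDX2 (-1.74) and HNF4A (-0.99), both named after their values were seen, and the median departure was -1.24 beside -0.05 for all genes. The count of 1116 was 1844 without rich vehicle replicate 2, 667 and 600 without rich bafilomycin A1 replicates 2 and 3, 393 to 583 without 1 depleted vehicle library, and 419 and 447 without combined replicates 2 and 3. PTH1R, POLR3G and TFEC lost their calls in 13, 6 and 4 alternative settings, in each case also without combined replicate 3 (edgeR adjusted p = 0.0697, 0.0642 and 0.0642).

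**Figure D5:**
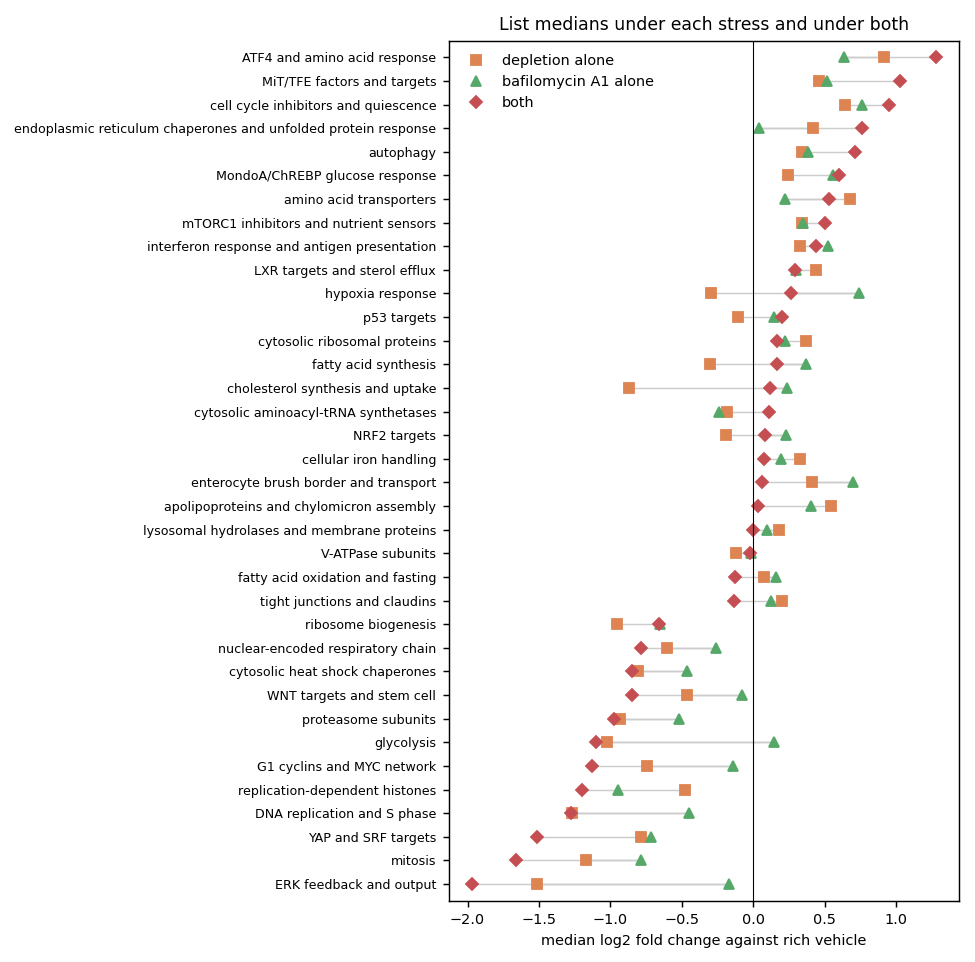
Median log2 fold change against rich vehicle of each of the 36 lists under depletion alone (squares), bafilomycin A1 alone (triangles) and both (diamonds); all 3 share the rich vehicle libraries. For mitosis the diamond (-1.66) lies beyond both other marks, for ribosome biogenesis (-0.66) it lies between them, and for cholesterol synthesis the depletion mark alone is far below 0 (-0.87).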

How the data were processed

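Estimated counts per gene (NumReads) were used as deposited by the authors, 1 table for each of 12 libraries. DRAGEN and GRCh38 appear in the submitters' processing notes, without a version or role; annotation and strand setting are not given in any source used here, and effective lengths come from the same tables. Counts were rounded, filtered with filterByExpr (minimum count 10, minimum total 15) and fitted with edgeR 4.0.16 (TMM, robust quasi-likelihood, 1 mean per group, 8 residual degrees of freedom) in R 4.3.3, with Benjamini-Hochberg adjustment over all 18047 genes and a threshold of 0.05. Deposited TPM values were not used for any comparison. A series-wide table of whole-number counts deposited by the authors, with 13518 genes past the same filter, served as an alternative, as did DESeq2 1.42.0, other scalings, no filter, the 6 compared libraries alone, a minimum fold of 1.5, effective length offsets, a replicate block and leaving out single libraries. Only the main edgeR fit was run on simulated counts, in which genes were changed in the combined group alone. The alternatives were not.

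Members and gene lists were chosen with earlier results of these data known. Genes were named by rule: the 12 highest and 12 lowest called genes with at least 5 CPM and groups apart, up to 3 called members per list with at least 1 CPM, a panel of 44, up to 8 per direction beyond all other groups and up to 4 per direction departing from additivity; others are marked as named after their values were seen. Some genes share exons with a gene on the other strand in GENCODE v29, among them CCND1, CLDN2, DUSP6, PPT1, PSMC1, NPRL2 and CIDEB. Because the strand setting is unknown, their reads cannot be told apart from those of the overlapping gene. Others, among them RRM2, ASNS, ATP6V0C and CTSD, share exon bases with a gene on the same strand, which a strand setting would not separate. Promoters are RefSeq entries of GRCh38.p14. The depth of each library limits genes of low level, most in rich vehicle replicate 1. No 2 libraries held identical values. Some genes that the naming rule picks are not reported here.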

Additional observations from a re-analysis of the deposited data

Results flagged for a closer look

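For the named genes listed here the effect of bafilomycin A1 differed between depleted and rich medium, by the interaction term of the edgeR fit (adjusted p under 0.05 over all genes); the value given is the combined change minus the sum of the single changes, on the log2 scale. Genes raised by each stress and lying below the sum were YPEL2 (-1.89), TCP11L2 (-1.26), DDIT4 (-2.13), ULK1 (-0.91), TP53INP1 (-1.43), MLXIPL (-1.42), PPARA (-1.29), CREB3L3 (-1.35), LOX (-1.95), SLC38A3 (-1.81), CIDEB (-2.19), AKR1C1 (-1.77), AKR1C2 (-1.33), ABCC3 (-2.19), GDF15 (-1.53), NDRG1 (-1.99) and CYP2W1 (-3.83).

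Genes whose level under both stresses was lower than the sum, while the single changes were smaller or not called, were CLDN2 (-2.48), SH3TC2 (-1.65), SIGLEC6 (-2.57), SLC2A3 (-1.66), CA12 (-1.91), CCND1 (-1.83), LCT (-2.88), APOA1 (-1.56), ANXA8 (-3.62), PRSS35 (-1.66), SCARA3 (-1.87), KCNJ16 (-1.93) and EFR3B (-1.74). PTH1R (-3.34) and TFEC (-3.17) rose under depletion alone and were not called under both.

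Above the sum lay FARSB (1.14), HSP90AA1 (1.09), UTP20 (1.23), HSPA4L (2.27), FJX1 (2.14) and POLR3G (1.98), which each stress lowered, and MFSD2A (2.26) and NPRL2 (1.33), which neither stress alone changed past the threshold.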

How the results depend on the processing

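The combined comparison called 7797 genes, 5928 to 8468 under the other settings, but 3903 (1913 higher, 1990 lower) against a minimum fold of 1.5. It called 6333 to 7948 when 1 rich vehicle or combined library, or rich bafilomycin A1 replicate 3, was left out. For this comparison and its genes and lists, refits without another rich bafilomycin A1 library or a depleted vehicle library were not counted. Of the genes beyond all 3 other groups (833), DESeq2 called 1370 (654 above, 716 below), the replicate block 1417 (631 and 786) and the minimum fold 88 (18 and 70). Without a filter 735 lay below, and without both libraries that stand apart (rich vehicle replicate 1 and rich bafilomycin A1 replicate 3) 605 lay above. Leaving out any 1 of the 12 libraries gave 296 to 1250 in all, 131 to 616 above and 165 to 634 below. Departures (1116) numbered 2093 with DESeq2, 1792 without a filter, 1969 with the block, 139 with the minimum fold and 393 to 1844 with 1 library left out.

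Replicate numbers were not treated as pairs, since no label ties them and the deviations of same-numbered samples correlated above 0.1 in 6 of 18 pairs (range -0.0812 to 0.2936, other pairs -0.2976 to 0.1008). All 6 were pairs of replicates 2 or of replicates 3 among the rich vehicle, depleted vehicle and combined groups. Between rich vehicle and combined libraries, same-numbered samples correlated at 0.05, 0.2721 and 0.2086, and other pairs at -0.2161 to 0.01198. A sample's best match in another group had its own number in 26 of 36 cases, a hint from the data that numbers may share something. With the replicate block, ATF4 (edgeR adjusted p = 0.011), CTSD (0.0111), APOA1 (0.0372), TFRC (0.0151) and FTH1 (0.0039) were called, and ALB (0.103) and ATP6V0A4 (0.0675) were not. Sign changed for 3 genes that were not called. GPNMB was at 0.042 with the block, 1.09 without both libraries and -0.58 to 1.09 with 1 library left out. LAMP1 was at 0.0032 with library size scaling and -0.30 to 0.20 with 1 library left out. PDK4 was at 2.00 without both libraries and -3.08 to 2.00 with 1 library left out. The causes were not tested. Depth limits genes of low level, most in rich vehicle replicate 1.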
